A study of Mus musculus with 412 samples.

Results

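Prokr2, Hcrtr1, S100a16, Chp2 and Fam19a1 are 5 genes that were chosen because, in earlier results from these same neurons, their transcripts marked colonic sensory neurons that hold the acid-sensing channel gene Asic3. All 5 were found once each among the 45513 genes of the deposited table, by Ensembl identifiers that map to their symbols in the GRCm38 annotation. The reference group throughout was the neurons with Asic3 at 10 TPM or more (transcripts scaled to 1000000 per neuron), called Asic3 neurons here. Since expression in these neurons chose the genes, their levels and shares in Asic3 neurons are a description, and no test was made of them.

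Prokr2 encodes a receptor for the prokineticins, small secreted proteins known for their action on gut motility and for sensitising nociceptors, and Hcrtr1 encodes a receptor for the orexin peptides, best known from the control of wakefulness; both receptors couple to Gq and calcium release. S100a16 and Chp2 encode EF-hand calcium-binding proteins, and CHP2 binds plasma membrane Na+/H+ exchangers, while Fam19a1, also named Tafa1, encodes a small secreted chemokine-like protein made mainly in the nervous system. ASIC3 is a proton-gated cation channel of dorsal root ganglion (DRG) neurons that has been tied to the responses of colonic afferents to stretch and acid.

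The neurons came from C57BL/6J mice whose colon wall had been injected with the retrograde tracer Fast Blue 3 to 10 days earlier. Ganglia were taken from the thoracolumbar (TL, T10 to L1) and the lumbosacral (LS, L5 to S2) spinal levels and cultured apart, and labelled neurons were picked singly with a glass pipette. Each was sequenced as a full-length cDNA (Smart-seq2) library, in 6 library plates, of which plate 1 held only TL neurons. The table held 325 of the 399 labelled neurons, 167 of 203 from TL and 158 of 196 from LS; the other 74 and all 13 bath controls were not in it. Age and sex are not given in the labels. The labels do not name the mouse or the culture of a neuron, so TL and LS were 1 sample each, no value has a replicate check, and segment and culture cannot be told apart.

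Each deposited value is on a log2 scale with 1 added; taken off that scale and rescaled it is proportional to reads per gene length, hence the name TPM, and a gene was counted as expressed at 10 TPM or more. The reads on genes recovered from the values ranged in TL neurons from 485751 to 10499482 with a median of 2709639, and in LS neurons from 416047 to 12059055 with a median of 3202810.5. The median neuron had 13497 genes detected in TL and 13975.5 in LS. At median depth a level of 10 TPM rested on 96.4 reads for Prokr2, 51.3 for Fam19a1, 31.8 for Hcrtr1, 29.5 for Asic3, 19.7 for S100a16 and 19.5 for Chp2. In the shallowest neuron it rested on as few as 2.64 reads for Chp2 and 2.67 for S100a16. Intervals below are exact Clopper-Pearson 95% intervals and, like the limits for counts of 0, cover counting error only.

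Markers of the labelled cell type were present: all 8 sensory neuron markers (Rbfox3, Uchl1, Tubb3, Prph, Snap25, Avil, Isl1 and Pou4f1) were at 10 TPM or more in most neurons of both segments, and their summed level had a median of 14835 TPM in TL and 14678 TPM in LS, with Tubb3 the most abundant.

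Asic3 (ENSMUSG00000038276, chromosome 5, 24413392 to 24417835, plus strand) was expressed in 81 of 325 neurons, 24.9% (interval 20.3 to 30.0%). In TL it was expressed in 57 of 167 neurons, 34.1% (27.0 to 41.9%), and in LS in 24 of 158, 15.2% (9.98 to 21.8%). Among the neurons that expressed it, the lowest, median and highest levels were 16.2, 295.3 and 1037 TPM in TL and 10.2, 104.2 and 1058 TPM in LS. Asic3 neurons were thus more frequent in TL. The full ranges of their Asic3 levels overlapped, but most levels were lower in LS. The lower and upper quartiles were 146.9 and 626.6 TPM in TL and 19.98 and 151.8 TPM in LS. The TL share was the higher one in 5 of the 5 plates that held both segments. The lowest level inside the reference group was 10.2 TPM and the highest outside it 9.11 TPM, and 209 neurons had a value of 0. Only 7 neurons lay between 5 and 10 TPM and 7 between 10 and 20 TPM. Most neurons therefore stood clearly on one side of the threshold. The LS reference group was less clear of it, since 18 of its 24 neurons were at 20 TPM or more.

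The first receptor gene, Prokr2 (ENSMUSG00000050558, chromosome 2, 132337733 to 132385447, minus strand), was expressed in 46 neurons, 14.2% of all (10.6 to 18.4%), in 32 of 167 TL neurons (19.2%, 13.5 to 26.0%) and 14 of 158 LS neurons (8.86%, 4.93 to 14.4%). Where expressed, its lowest, median and highest levels were 11.7, 51.4 and 296.8 TPM in TL and 10.3, 21.0 and 177.9 TPM in LS. In TL, 28 of 57 Asic3 neurons (49.1%, 35.6 to 62.7%) and 4 of 110 other neurons (3.64%, 1.00 to 9.05%) expressed it. Prokr2 was thus close to evenly present and absent among TL Asic3 neurons and rare outside them. In LS the shares were 6 of 24 (25.0%, 9.77 to 46.7%) and 8 of 134 (5.97%, 2.61 to 11.4%). The share was higher in Asic3 neurons in 5 of 5 plates in TL and in 4 of 5 in LS. With reads scaled to 1000000 per neuron (CPM) in place of the length-scaled values, which lets a long transcript pass at a lower level, 17 of 135 LS neurons (12.6%) and 10 of 110 TL neurons (9.09%) without Asic3 expressed Prokr2; the share was still higher in Asic3 neurons.

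Hcrtr1 (ENSMUSG00000028778, chromosome 4, 130130217 to 130139359, minus strand), the orexin receptor gene, was expressed in 61 neurons, 18.8% of all (14.7 to 23.5%), in 38 of 167 TL neurons (22.8%, 16.6 to 29.9%) and 23 of 158 LS neurons (14.6%, 9.46 to 21.0%). Where expressed, its lowest, median and highest levels were 12.01, 28.1 and 751.3 TPM in TL and 10.2, 23.0 and 79.8 TPM in LS. Of TL neurons, 22 of 57 with Asic3 (38.6%, 26.0 to 52.4%) and 16 of 110 without it (14.5%, 8.55 to 22.5%) expressed Hcrtr1. It was the gene with the lowest share among TL Asic3 neurons, and many of its neurons lay outside that group. In LS the shares were 7 of 24 (29.2%, 12.6 to 51.1%) and 16 of 134 (11.9%, 6.98 to 18.7%); the share was higher in Asic3 neurons in 5 of 5 plates in each segment. Hcrtr1 levels crowded near the threshold, with 32 neurons from 5 to 10 TPM and 28 from 10 to 20 TPM. At a threshold of 20 TPM, also for Asic3, the share in TL neurons without Asic3 was 5 of 111 (4.50%) and the LS direction turned, since only 1 of 18 LS Asic3 neurons (5.56%) then passed, against 11 of 140 other LS neurons.

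The calcium-binding protein gene S100a16 (ENSMUSG00000074457, chromosome 3, 90537254 to 90543151, plus strand) was the most widely expressed of the 5, in 94 neurons, 28.9% of all (24.0 to 34.2%), in 65 of 167 TL neurons (38.9%, 31.5 to 46.8%) and 29 of 158 LS neurons (18.4%, 12.6 to 25.3%). Where expressed, its lowest, median and highest levels were 10.2, 70.8 and 1169 TPM in TL and 10.1, 19.7 and 711.1 TPM in LS. In TL, 37 of 57 Asic3 neurons (64.9%, 51.1 to 77.1%) and 28 of 110 others (25.5%, 17.6 to 34.7%) expressed it. Expressing TL Asic3 neurons had a median S100a16 level of 337.1 TPM against 32.2 TPM in the other expressing TL neurons, though single neurons of every group reached high levels (503.1 TPM in TL without Asic3, 649.1 TPM in LS without it). In LS the shares were 7 of 24 (29.2%, 12.6 to 51.1%) and 22 of 134 (16.4%, 10.6 to 23.8%), and the share was higher in Asic3 neurons in 2 of 5 plates and lower in 3. Without plate 2 the LS direction turned, with 3 of 19 Asic3 neurons and 20 of 118 others. For LS, then, no steady relation of S100a16 to Asic3 was seen. Many S100a16 levels also lay near the threshold: at 20 TPM the share was 8.23% of LS neurons, and with CPM it was 11.4%.

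Chp2 (ENSMUSG00000030865, chromosome 7, 122219496 to 122222824, plus strand), whose product binds Na+/H+ exchangers, was expressed in 55 neurons, 16.9% of all (13.0 to 21.4%), in 40 of 167 TL neurons (24.0%, 17.7 to 31.2%) and 15 of 158 LS neurons (9.49%, 5.41 to 15.2%). Where expressed, its lowest, median and highest levels were 10.7, 117.5 and 455.1 TPM in TL and 10.5, 30.1 and 392.1 TPM in LS. Of TL neurons, 36 of 57 with Asic3 (63.2%, 49.3 to 75.5%) and 4 of 110 without it (3.64%, 1.00 to 9.05%) expressed Chp2. In LS the shares were 9 of 24 (37.5%, 18.8 to 59.4%) and 6 of 134 (4.48%, 1.66 to 9.49%), so that Chp2 was rare outside Asic3 neurons in both segments; the share was higher with Asic3 in 5 of 5 plates in TL, and in LS in 4 and lower in 1. Of all neurons with Chp2, 45 of 55 (81.8%, 69.1 to 90.9%) were Asic3 neurons.

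Fam19a1 (ENSMUSG00000059187, chromosome 6, 96113154 to 96657198, plus strand), the gene of the secreted protein, was the rarest, in 40 neurons, 12.3% of all (8.94 to 16.4%), in 34 of 167 TL neurons (20.4%, 14.5 to 27.3%) and 6 of 158 LS neurons (3.80%, 1.41 to 8.08%). Where expressed, its lowest, median and highest levels were 12.7, 67.5 and 179.4 TPM in TL and 14.8, 20.2 and 76.4 TPM in LS. In TL, 32 of 57 Asic3 neurons (56.1%, 42.4 to 69.3%) and 2 of 110 others (1.82%, 0.221 to 6.41%) expressed it. Fam19a1 was the most restricted of the genes: 36 of its 40 neurons (90.0%, 76.3 to 97.2%) were Asic3 neurons. In LS the shares were 4 of 24 (16.7%, 4.74 to 37.4%) and 2 of 134 (1.49%, 0.181 to 5.29%); the share was higher with Asic3 in 5 of 5 plates in TL, and in LS in 3 with equal shares in 2. The 4 neurons with Fam19a1 outside the Asic3 group, of which 3 had Asic3 at 0, all held S100a16 as well. The span of Fam19a1 also holds 3 annotated genes on the other strand, all in the table under their own identifiers.

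**Figure D1:**
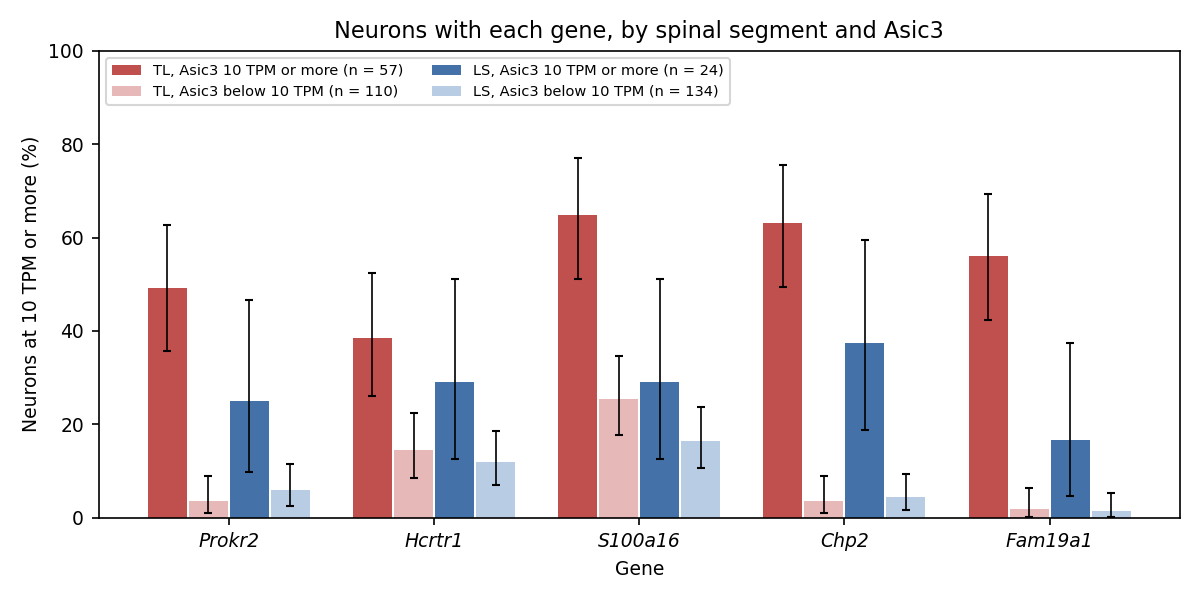
Bars give the percent of neurons at 10 TPM or more for each gene (x axis), in TL and LS neurons with Asic3 at 10 TPM or more and below it; black lines are exact 95% intervals. Each gene has its highest bar in the 57 TL Asic3 neurons, and Prokr2, Chp2 and Fam19a1 stay under 6% in both groups without Asic3.

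In order of their share among all TL neurons, S100a16 stood first (38.9%), followed by Chp2 (24.0%), Hcrtr1 (22.8%), Fam19a1 (20.4%) and Prokr2 (19.2%). Only S100a16 had an interval apart from that of its neighbour in this order. In LS the order was S100a16 (18.4%), Hcrtr1 (14.6%), Chp2 (9.49%), Prokr2 (8.86%) and Fam19a1 (3.80%), with overlapping intervals between all neighbours. Every gene had a higher share in TL than in LS, in 5 of 5 plates for Hcrtr1, S100a16 and Fam19a1, in 4 of 5 for Prokr2, and in 4 of 5 for Chp2, which had equal shares in the remaining plate. The TL and LS intervals were apart for S100a16, Chp2 and Fam19a1 and overlapped for Prokr2 and Hcrtr1. These intervals cover counting error over neurons only, and neither segment has a replicate, so they cannot grade a difference between segments. An overlap does not show equal shares, and a gap does not show a segment difference.

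Co-expression was graded. Of the 81 Asic3 neurons, 10 expressed none of the 5 genes, 21 expressed 1, 18 expressed 2, 8 expressed 3, 13 expressed 4 and 11 expressed all 5. Of the 244 neurons without Asic3, 155 expressed none, 75 expressed 1, 11 expressed 2, 1 expressed 3, 2 expressed 4 and 0 expressed all 5, which allows a share of up to 1.23%. Single genes were thus common outside the Asic3 group, and combinations were rare there. Read the other way, Asic3 was at 10 TPM or more in 50 of 64 neurons with at least 2 of the genes (78.1%, 66.0 to 87.5%), in 32 of 35 with at least 3 (91.4%, 76.9 to 98.2%) and in 11 of 11 with all 5 (71.5 to 100%). For at least 2 genes this was 42 of 49 neurons in TL (85.7%) and 8 of 15 in LS (53.3%, 26.6 to 78.7%). For at least 3 it was 28 of 29 in TL and 4 of 6 in LS. The combination was a TL trait in number: 10 of the 11 neurons with all 5 genes, and 23 of the 26 with 4 or 5, came from TL. Within Asic3 neurons, at least 2 of the genes were expressed in 42 of 57 TL neurons (73.7%, 60.3 to 84.5%) and 8 of 24 LS neurons (33.3%, 15.6 to 55.3%).

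The most frequent pattern of TL Asic3 neurons was all 5 genes together (10 of 57), followed by all but Hcrtr1 (6 neurons) and Chp2 alone (5 neurons). In LS Asic3 neurons the leading patterns were none of the genes (6 of 24), Chp2 alone (5) and Hcrtr1 alone (3). Outside the Asic3 group the leading patterns after none were S100a16 alone, in 22 of 110 TL and 17 of 134 LS neurons, and Hcrtr1 alone, in 12 and 13 neurons. The 5 genes therefore fell into a pair that was often found singly, S100a16 and Hcrtr1, and 3 genes that seldom were outside Asic3 neurons.

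The most complete combinations were found at the highest levels of Asic3. Among Asic3 neurons the median Asic3 level was 30.2 TPM with none of the 5 genes, 176.8 TPM with 1, 144.0 TPM with 2, 145.8 TPM with 3, 626.6 TPM with 4 and 643.2 TPM with all 5. Of the 20 neurons at 500 TPM or more, 19 expressed Chp2, 16 Fam19a1, 14 Prokr2, 13 S100a16 and 11 Hcrtr1. Of the 24 neurons from 10 to 100 TPM, 6 expressed Chp2, 4 Fam19a1, 5 Prokr2, 10 S100a16 and 6 Hcrtr1. These bands differ in segment, with 17 TL neurons among the 20 and 12 among the 24. In TL alone, the counts in the 12 lower and the 17 higher neurons were 4 and 16 for Chp2, 3 and 15 for Fam19a1, 2 and 13 for Prokr2, 3 and 10 for Hcrtr1 and 8 and 12 for S100a16. The share of S100a16 hardly changed between these TL bands, while those of the other genes were higher at high Asic3. Depth differed as well: the neurons with 4 and with 5 genes in the Asic3 group had medians of 4114304 and 3311728 reads, against 2384054 with 1 and 3439493.5 with none, and within Asic3 neurons the Asic3 level had a Spearman rho of 0.34 with reads (n = 81). The part of depth in the grading was not tested.

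**Figure D2:**
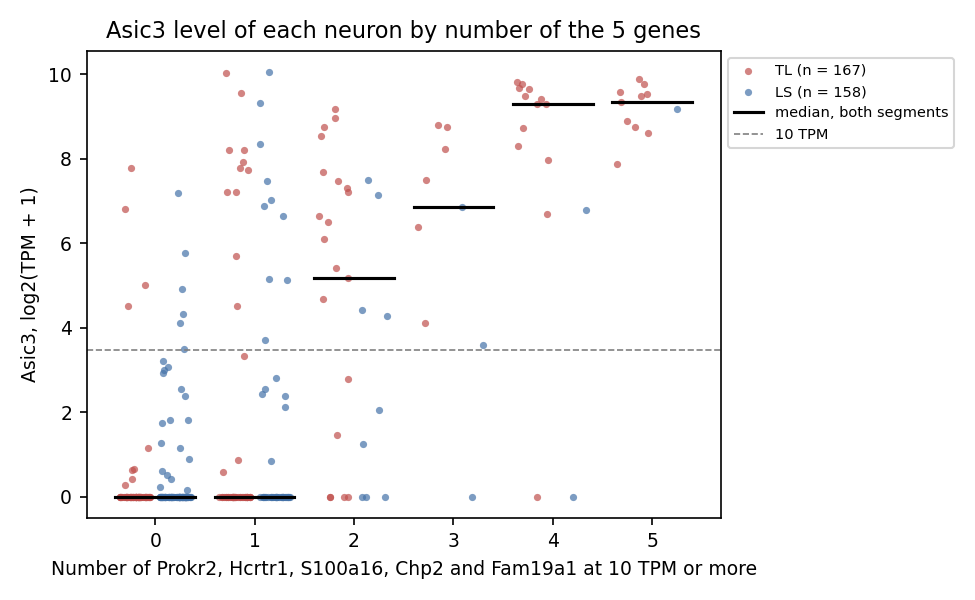
Each point is 1 neuron, placed by how many of Prokr2, Hcrtr1, S100a16, Chp2 and Fam19a1 it expressed (x axis) and by its Asic3 level (y axis, log2 of TPM with 1 added), with TL in red and LS in blue; black lines are medians and the dashed line is 10 TPM. All 11 neurons with the 5 genes lie above the dashed line, and 10 of them are TL neurons.

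Rank correlations across all 325 neurons, which share plates and differ in depth, are given as descriptions. Spearman rho with Asic3 was 0.57 for Chp2, 0.55 for Fam19a1, 0.36 for Prokr2, 0.30 for Hcrtr1 and 0.30 for S100a16, placing them 10th, 22nd, 278th, 507th and 508th of the 11884 other genes that reached 10 TPM in at least 5% of neurons. Chp2 and Fam19a1 followed Asic3 closely and the other genes loosely. Within plates 2 to 6 the rho with Asic3 ran from 0.39 to 0.71 for Chp2 and from 0.38 to 0.65 for Fam19a1, and for Hcrtr1 it ran from 0.12 to 0.49. In TL (n = 167) the values were 0.67 for Chp2, 0.66 for Fam19a1, 0.50 for Prokr2, 0.42 for S100a16 and 0.36 for Hcrtr1. In LS (n = 158) they were 0.39, 0.33, 0.14, 0.08 and 0.24 in the same order of genes, so that each was weaker than in TL.

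Among the 10 pairs of the 5 genes themselves, rho was highest for Chp2 with Fam19a1 (0.49) and for S100a16 with Fam19a1 (0.47), and lowest for Hcrtr1 with S100a16 (0.08), over all 325 neurons. Inside the 81 Asic3 neurons, which mix TL and LS and in which each gene still followed the Asic3 level (rho from 0.35 to 0.57), S100a16 with Fam19a1 stood first at 0.63 and Prokr2 with S100a16 last at 0.18. Of the neurons with Fam19a1, 32 of 40 also held S100a16, 29 Chp2, 26 Prokr2 and 19 Hcrtr1. Of the neurons with Hcrtr1, 25 of 61 held S100a16 and 19 each of the other 3 genes. Over all neurons those with Fam19a1 held the other genes most often; within TL Asic3 neurons those with Hcrtr1 or Prokr2 held them about as often.

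**Figure D3:**
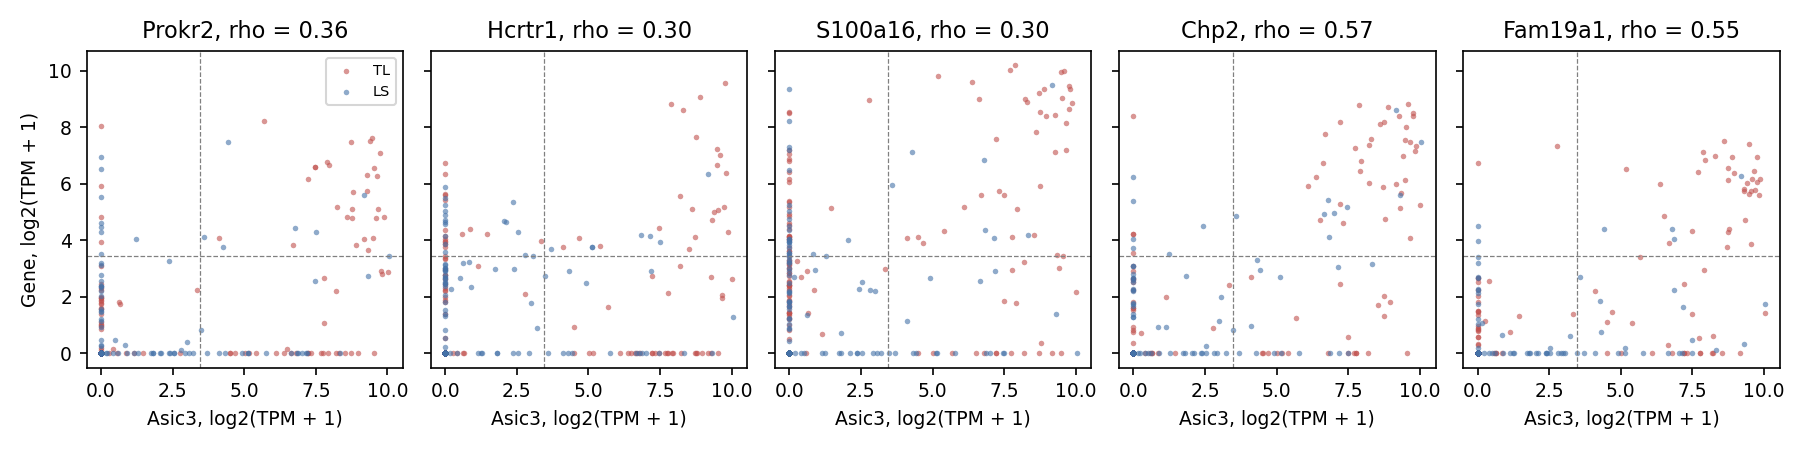
Each panel sets the level of 1 gene (y axis) against Asic3 (x axis), both as log2 of TPM with 1 added, for 167 TL (red) and 158 LS (blue) neurons; dashed lines mark 10 TPM. Chp2 (rho 0.57) and Fam19a1 (0.55) are low in nearly all neurons with Asic3 at 0, while S100a16 and Hcrtr1 (0.30 each) are above 10 TPM in more of them.

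The genes whose levels were most like each of the 6 were found by the same measure over all 325 neurons. For Asic3 they were Nptx1 (rho 0.66), Cgnl1 (0.66), Paqr9 (0.59), Mctp1 (0.58) and Sema5a (0.58). For Prokr2 they were the galanin receptor gene Galr1 (0.66), Smpd3 (0.57), the long noncoding RNA gene Gm4208 (0.56), Hpcal1 (0.55) and Syt2 (0.54). Asic3 itself ranked 136th for Prokr2, 320th for Hcrtr1 and 370th for S100a16, so many genes were closer to these 3 than Asic3 was. For Hcrtr1 they were Lgmn (0.51), the Na+/H+ exchanger gene Slc9a9 (0.47), Anxa2 (0.43), Nptx1 (0.43) and Stbd1 (0.43). For Chp2 they were Sema5a (0.58), Asic3 (0.57), the protein kinase C beta gene Prkcb (0.56), Creg2 (0.56) and Cgnl1 (0.54), and for Fam19a1 they were Creb5 (0.62), Asic3 (0.55), Pcolce2 (0.53), Nptx1 (0.52) and Snhg18 (0.52). Nptx1 appeared 3 times, with Asic3, Hcrtr1 and Fam19a1. For S100a16 they were Fxyd1 (0.67), Igfbp4 (0.67), Apoe (0.66), Sparc (0.65) and Sdc4 (0.65), of which Apoe and Sparc are among the 10 satellite glia markers listed below.

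S100a16 followed satellite glia transcripts, and the other genes did so weakly or not at all. The summed level of 10 satellite glia markers, among them Fabp7, Apoe, Sparc and Kcnj10, had a rho with S100a16 of 0.66 over all neurons, 0.61 in TL and 0.63 in LS; with the other 4 genes it ran from -0.03 for Hcrtr1 to 0.22 for Fam19a1, and with Asic3 it was 0.07. With the neurons ordered by this sum and divided into 4 groups, from the lowest to the highest, S100a16 was expressed in 5 of 82, 8 of 81, 26 of 81 and 55 of 81 neurons. Its share thus climbed with the glial sum, both in the whole table and inside the Asic3 group, where it was 3 of 17, 6 of 17, 12 of 21 and 23 of 26. The glial sum itself was higher in TL, with lowest, median and highest values of 6.02, 2039.6 and 102346 TPM against 6.83, 220.1 and 61538 TPM in LS. Its median was 2921 TPM in TL Asic3 neurons, 1767 TPM in other TL neurons, 197.1 TPM in LS Asic3 neurons and 227.3 TPM in other LS neurons. Apoe was the most abundant marker in each group, with means from 1335 to 6151 TPM; each of the 10 markers reached 10 TPM in some neurons of every group, except Kcnj10, which never did in LS Asic3 neurons. Without the 81 neurons with the highest sum, an alternative chosen after the values had been seen, S100a16 was expressed in 25 of 115 TL neurons (21.7%) and 14 of 129 LS neurons (10.9%), and in 16 of 35 TL Asic3 neurons (45.7%) against 9 of 80 other TL neurons (11.2%). The share in TL stayed above that in LS, and that in Asic3 neurons above that in the others. The part of glial transcripts in the S100a16 values was not tested.

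**Figure D4:**
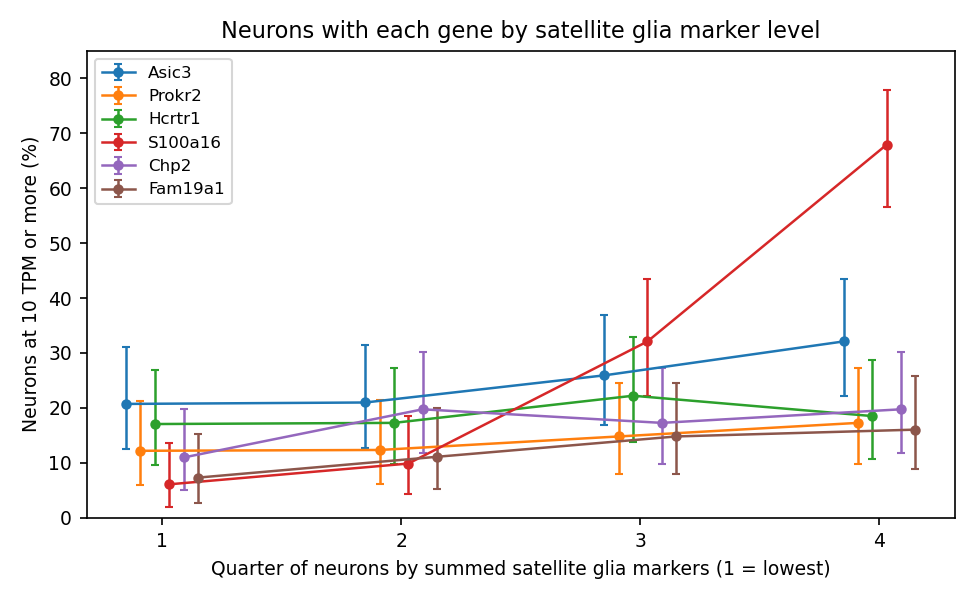
The percent of neurons at 10 TPM or more for each gene (y axis) is shown for the 325 neurons in 4 groups ordered by their summed satellite glia markers (x axis), with exact 95% intervals. S100a16 climbs from 6.10% to 67.9%, while Prokr2, Hcrtr1, Chp2 and Fam19a1 stay between 7.32% and 22.2%.

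Macrophage and fibroblast markers had lower median sums in Asic3 neurons than in the others of each segment, while some single markers went the other way: in TL, with and without Asic3, Cd68 was at 10 TPM or more in 11 of 57 and 8 of 110 neurons, Aif1 in 4 and 2 and Lum in 7 and 6, and in LS Lyz2 was so in 3 of 24 and 5 of 134. Of the 8 macrophage markers (Csf1r, Cd68, Aif1, C1qa, C1qb, Lyz2, Cx3cr1 and Mrc1), C1qb was the most abundant, the summed level had a median of 11.9 TPM in TL Asic3 neurons, 33.6 TPM in other TL neurons, 19.5 TPM in LS Asic3 neurons and 52.0 TPM in other LS neurons, and C1qa never reached 10 TPM in any neuron. The median sum of the 6 endothelial markers (Pecam1, Cldn5, Flt1, Kdr, Cdh5 and Ly6c1) was under 1 TPM in these groups, from 0.177 to 0.674 TPM, and Cldn5, the most abundant over all neurons, was so through 1 TL neuron without Asic3 at 19217 TPM, whose endothelial sum was 23782 TPM, and was at 10 TPM or more in only 2 of 325 neurons; Pecam1, Flt1, Kdr and Cdh5 never reached 10 TPM in an Asic3 neuron. That of the 6 fibroblast markers (Col1a1, Col1a2, Col3a1, Dcn, Lum and Pdgfra) was 8.57 TPM in TL Asic3 neurons, 19.3 TPM in other TL neurons, 3.27 TPM in LS Asic3 neurons and 16.6 TPM in other LS neurons, with Dcn the most abundant and Col1a1 and Pdgfra never at 10 TPM in an Asic3 neuron. Their part in the values of the 5 genes was not tested.

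To set the 5 genes among all others, Asic3 neurons were compared with the rest of their segment by the ratio of mean levels, each with 1 TPM added, over the 11885 genes at 10 TPM or more in at least 5% of neurons; a ratio of 2 or more was counted. In TL all 5 genes were at least 2-fold higher, where 3.21% of genes were (382 of 11885), and 0 of 5 were at least 2-fold lower, where 5.62% were (668). In LS 4 of the 5 were at least 2-fold higher, where 2.65% were (315), and 0 were lower, where 4.72% were (561). The genes had been chosen by this contrast, so nothing is read from these counts. In TL the mean level in Asic3 neurons and in the others was 104.1 and 3.99 TPM for Chp2 (21.1-fold), 40.4 and 2.86 TPM for Fam19a1 (10.7-fold), 242.3 and 23.2 TPM for S100a16 (10.1-fold), 55.2 and 5.36 TPM for Hcrtr1 (8.85-fold) and 37.3 and 3.85 TPM for Prokr2 (7.91-fold), each in the same direction in 5 of 5 plates. In LS it was 34.7 and 1.87 TPM for Chp2 (12.5-fold, 4 of 5 plates), 6.25 and 0.620 TPM for Fam19a1 (4.47-fold, 5 of 5), 13.1 and 3.07 TPM for Prokr2 (3.47-fold, 2 of 5), 45.7 and 13.2 TPM for S100a16 (3.30-fold, 2 of 5) and 7.92 and 4.40 TPM for Hcrtr1 (1.65-fold, 2 of 5). In LS, single neurons carried much of this: without the 1 LS Asic3 neuron with the highest level of the gene, an alternative chosen after the values had been seen, the ratio was 1.71-fold for Prokr2, 1.25-fold for S100a16 and 1.07-fold for Hcrtr1, so that only Chp2 (7.04-fold) and Fam19a1 (2.59-fold) stayed past 2-fold. The neuron left out was the same one for Hcrtr1, S100a16, Chp2 and Fam19a1, and it was the deepest LS library, with 12059055 reads. In TL the same step left ratios from 6.89-fold for Hcrtr1 to 19.8-fold for Chp2.

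Of the genes at least 2-fold higher in Asic3 neurons, 173 were shared by the segments, 45.3% of the TL genes and 54.9% of the LS genes; of those lower, 279 were shared, 41.8% and 49.7%. In the opposite direction, 6 genes were higher in TL and lower in LS, and 9 the reverse; none of the 5 genes was among them. Beside Asic3 and Chp2, the 10 highest ratios in TL among genes alike in all plates were those of Smr2 (97.9-fold), Gm42622 (64.9-fold), Trappc3l (20.3-fold), Gm42164 (18.4-fold), Kcnip1 (13.0-fold), D930028M14Rik (12.4-fold), Prkcb (11.8-fold) and Pcp4l1 (10.97-fold). Gm42622 and Gm42164 are annotated as processed pseudogenes, so their reads may be shared with genes of like sequence and their ratios are uncertain. Chp2 was the only one of the 5 genes on this list. The 10 lowest in TL were Ighg2c (19.2-fold lower), Wfdc17 (16.1-fold), Npffr2 (14.8-fold), Mymk (13.4-fold), the small RNA gene Gm23175 (13.2-fold), Paqr5 (13.0-fold), Gnb3 (12.3-fold), Tnfaip8l3 (12.1-fold), Lpar3 (11.6-fold) and Igfbp7 (11.4-fold).

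In LS, among genes alike in all plates, the leading ones after Gm42622 (153.5-fold) and Asic3 were Nptx1 (6.88-fold), Kcnip1 (6.35-fold), Kitl (5.31-fold), Pcolce2 (5.07-fold), Cgnl1 (4.92-fold), Sema5a (4.52-fold), Abcg2 (4.39-fold) and Disp3 (4.36-fold). Kcnip1 and Gm42622 led in both segments; Smr2 (319.5-fold) and Chp2 (12.5-fold) had high LS ratios too but were alike in only 4 of 5 plates. The lowest in LS were Gfra3 (301.3-fold lower), Pcp4 (57.5-fold), Car8 (53.1-fold), Gal (36.5-fold), Trpa1 (31.3-fold), Chrnb3 (31.1-fold), Gpx3 (26.0-fold), Tnfaip8l3 (15.3-fold), Mymk (14.9-fold) and Igfbp7 (14.6-fold). Mymk, Tnfaip8l3 and Igfbp7 were thus on both lists of low genes.

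Within Asic3 neurons, LS was compared with TL to see how the 5 genes divided by segment. All 5 were at least 2-fold lower in LS, where 4.16% of genes were (495), and 0 were at least 2-fold higher, where 4.78% were (568). The number of all genes lower moved by more than 1.5-fold in some settings, as given below. Mean levels in LS and TL were 7.92 and 55.2 TPM for Hcrtr1 (6.31-fold lower in LS), 6.25 and 40.4 TPM for Fam19a1 (5.72-fold), 45.7 and 242.3 TPM for S100a16 (5.21-fold), 34.7 and 104.1 TPM for Chp2 (2.94-fold) and 13.1 and 37.3 TPM for Prokr2 (2.71-fold). The direction of the means was the same in 5 of 5 plates for Hcrtr1, Chp2 and Fam19a1 and in 4 of 5 for S100a16 and Prokr2. By share of expressing neurons, TL was higher in 5 of 5 plates for Fam19a1 and in 4 for S100a16 and Prokr2. For Hcrtr1 and Chp2 it was higher in only 3, equal in 1 and lower in 1. The sizes hang on single neurons: without the 1 LS Asic3 neuron with the highest level of the gene, again an alternative chosen late, LS was 9.71-fold lower for Hcrtr1, 9.86-fold for Fam19a1, 13.7-fold for S100a16, 5.20-fold for Chp2 and 5.51-fold for Prokr2. Over all neurons, leaving out 1 plate at a time gave log2 ratios of S100a16 in TL over LS between 1.77 and 3.51. Asic3 itself was 2.22-fold lower in LS, in 5 of 5 plates, and 57 of the 81 neurons that the choice of genes drew on were TL neurons, so the count stands as a description. The genes furthest higher in LS were Uts2b (1189-fold), Hoxd10 (129.7-fold), Spp1 (126.5-fold), Blnk (42.6-fold) and Hpse (34.2-fold), and those furthest lower were Pcp4 (62.0-fold), Gfra3 (59.1-fold), 6030408B16Rik (32.5-fold), Igfbp2 (29.8-fold) and Casp1 (15.7-fold). Hoxd10 was at 10 TPM or more in 24 of 24 LS and 0 of 57 TL Asic3 neurons. Of the satellite glia markers, 6 of 10 were also at least 2-fold lower in LS, among them Fabp7 and Apoe, and 0 higher; their part in the difference was not tested.

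The Asic3 neurons were split by each receptor gene in turn. Of the 34 with Prokr2, 28 were TL neurons (82.4%, 65.5 to 93.2%), against 29 of 47 without it (61.7%, 46.4 to 75.5%); for Hcrtr1 the counts were 22 of 29 (75.9%, 56.5 to 89.7%) and 35 of 52 (67.3%, 52.9 to 79.7%). The split by Prokr2 left 3 of the 5 genes at least 2-fold higher with it, where 3.01% of genes were (358): Prokr2 by construction, Chp2 (2.98-fold) and Fam19a1 (2.80-fold); 0 were lower, where 2.72% were (323). The highest ratios beside Prokr2 were those of the calcium-binding protein gene Scgn (18.8-fold), Gm4208 (12.04-fold), Gm7271 (7.97-fold) and 6030408B16Rik (6.42-fold). Scgn was expressed in 28 of 34 Asic3 neurons with Prokr2 and 4 of 47 without it. The lowest were Uts2b (470.8-fold lower), Spp1 (96.4-fold), Gm765 (31.9-fold), Car8 (15.6-fold) and Smr2 (14.1-fold), of which Uts2b and Spp1 also differed by segment.

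The split by Hcrtr1 left 4 of the 5 genes at least 2-fold higher with it, where 2.48% of genes were (295): Hcrtr1 by construction, Chp2 (2.97-fold), Fam19a1 (2.60-fold) and S100a16 (2.36-fold); 0 were lower, where 1.93% were (229). Prokr2 was 1.79-fold higher. The highest ratios beside Hcrtr1 were those of Gstm2 (24.3-fold), H2-M11 (15.9-fold), Rasgef1c (6.82-fold) and Ngef (5.88-fold), and the lowest those of Smr2 (25.9-fold lower), Gm765 (21.6-fold), Gm42622 (20.6-fold), Gm42164 (8.76-fold) and Cdr1 (7.94-fold). Smr2 and Gm765 were low on the receptor side of both splits. Asic3 was 1.80-fold higher with Prokr2 and 1.62-fold higher with Hcrtr1, so each split also followed the Asic3 level, and inside Asic3 neurons Hcrtr1 had a rho of 0.39 with the genes detected (n = 81). The numbers of genes past 2-fold with Hcrtr1 were not stable: with the mean of log2 values 1251 were higher and 36 lower, and without rescaling 669 and 650. Those of the Prokr2 split, and the numbers of genes lower in LS Asic3 neurons, also moved by more than 1.5-fold in some settings, as given below.

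Of the 5 genes, 4 were seldom found with Smr2, another gene of Asic3 neurons. Smr2 was expressed in 15 of 57 TL and 7 of 24 LS Asic3 neurons, and in 2 of 36 Asic3 neurons with Fam19a1 (5.56%) against 20 of 45 without it (44.4%). With and without the gene, the counts were 3 of 34 and 19 of 47 for Prokr2, 2 of 29 and 20 of 52 for Hcrtr1, and 5 of 44 and 17 of 37 for S100a16. Chp2 was the exception, with Smr2 in 15 of 45 neurons that held it and 7 of 36 that did not. Chp2 thus spanned Asic3 neurons with Fam19a1 and those with Smr2. Cbln2 was found in 1 of the 36 Asic3 neurons with Fam19a1 and Mrgprd in 1 of all 81 Asic3 neurons, while Ntm was in 0 of 81. Hpse was found in 0 of 57 TL Asic3 neurons, which allows up to 5.26%, and in 13 of 24 LS Asic3 neurons.

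Genes of fibre type were counted in Asic3 neurons with and without each gene. In these neurons the mechanically gated channel gene Piezo2 was expressed in 33 of 34 with Prokr2 and 27 of 47 without it, in 33 of 36 with Fam19a1 and 27 of 45 without it, in 26 of 29 and 34 of 52 for Hcrtr1, in 35 of 44 and 25 of 37 for S100a16, and in 33 of 45 and 27 of 36 for Chp2. The substance P gene Tac1 was in 9 of 36 with Fam19a1 and 32 of 45 without it, and Trpv1 in 10 of 36 and 26 of 45; for Tac1 the counts were 13 of 34 and 28 of 47 with Prokr2, 11 of 29 and 30 of 52 with Hcrtr1, 17 of 44 and 24 of 37 with S100a16, and 19 of 45 and 22 of 36 with Chp2. In these counts Fam19a1 neurons held Piezo2 more often and Tac1 and Trpv1 less often, but the sides also differ in segment, with 32 TL neurons of 36 with Fam19a1 and 25 of 45 without it, and the part of segment was not tested. Ntrk3 was expressed in 11 of 36 Asic3 neurons with Fam19a1 and 1 of 45 without it, and in 11 of 44 with S100a16 and 1 of 37 without it. Calca, Nefh and Scn10a were near universal on both sides, with Calca in 35 of 36 with Fam19a1 and 45 of 45 without it.

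The families and pathways of the 5 genes are given as counts of genes at least 2-fold higher and lower in Asic3 neurons. The median log2 ratio of each list is added. Over all 11885 genes 3.21% were higher and 5.62% lower in TL, with a median of -0.05. In LS 2.65% were higher and 4.72% lower, with a median of -0.03. Of the prokineticin system (Prok1, Prok2, Prokr1, Prokr2 and Mrap2), 3 genes were tested. Of these, 1 was higher in TL and in LS, Prokr2 itself, and 0 were lower (medians 0.15 and 0.05). In LS that call hung on 1 neuron, since Prokr2 was 1.71-fold higher without its highest LS Asic3 neuron. Both ligand genes fell below the filter. Of the orexin system (Hcrt, Hcrtr1 and Hcrtr2), 2 were tested and 1 was higher, Hcrtr1 in TL and Hcrtr2 in LS (medians 1.84 and 1.06). Hcrtr2 was 3.50-fold higher in LS than in TL Asic3 neurons, the reverse of Hcrtr1.

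Of the S100 family, 8 of 15 genes were tested. In each segment 3 were higher, S100a13, S100a16 and S100b, with 0 lower (medians 0.32 and 0.74). The LS call of S100a16 hung on 1 neuron, since it was 1.25-fold higher without its highest LS Asic3 neuron. Of the CHP proteins and Na+/H+ exchangers, 8 of 12 were tested; Chp2 was higher in both segments and Tesc in LS, with 0 lower (medians 0.16 and 0.22), and none of the tested exchanger genes passed 2-fold. Of the FAM19A family and its reported receptors, 6 of 9 were tested; Fam19a1 was higher in both segments and Fam19a5 lower in TL (medians -0.25 and -0.08). Of the acid-sensing channel family, 4 of 7 were tested and Asic1 was higher beside Asic3 in both segments, with 0 lower (medians 0.59 and 0.85). Of the genes for Gq signalling, through which both receptors act, 10 of 15 were tested; Plcb1 and Prkcb were higher and Plcb3 and Prkca lower in TL, and Gna14 and Prkcb were higher in LS with 0 lower (medians -0.48 and 0.00). Prkcb was the one gene of this list that was higher in both.

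Among genes of myelinated afferents, 15 of 15 were tested; 10 were higher in TL, among them Nefh, Ntrk3, Piezo2, Scn1a, Scn8a and Pvalb, and 1 lower (Ntrk2), and in LS 6 were higher and 0 lower (medians 1.02 and 0.79). Of 13 genes listed as peptidergic nociceptor genes, 1 was higher (Htr3a) and 5 lower in TL (Tac1, Trpv1, Trpa1, Gfra3 and Gal). In LS 1 was higher and 6 lower (medians -0.69 and -0.80). Htr3a was on this list, although the study reports it as abundant in its neurofilament subtypes, so its rise is no peptidergic exception. Of non-peptidergic nociceptor genes, 7 of 10 were tested; in TL 0 were higher and 5 lower (Mrgprd, Gfra2, Ret, Lpar3 and Htr4), and in LS 1 was higher (Gfra1) and 4 lower (medians -2.85 and -2.10). These counts are over all Asic3 neurons, with or without the 5 genes, and 7 of the 13 peptidergic genes in TL passed 2-fold in neither direction. In LS, single neurons weighed on some of the non-peptidergic genes counted as lower. Among LS neurons without Asic3, Mrgprd had a mean of 9.03 TPM with its highest neuron at 1189.3 TPM. Lpar3 had a mean of 4.42 TPM with its highest at 492.6 TPM. Each was at 10 TPM or more in only 2 of 134, and the part of the highest neuron was not tested.

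Further lists came from the study, which chose them on these same neurons, so their counts carry no independent weight. Of its 7 subtype markers (Cbln2, Fam19a1, Hpse, Mrgprd, Ntm, Smr2 and Trpa1), 2 were higher and 3 lower in TL, and 3 higher and 4 lower in LS (medians -0.21 and -2.33). The LS count again includes Mrgprd, with its highest neuron at 1189.3 TPM. Of 10 leading markers that the study lists for its subtype mNFb, leaving aside the 5 genes, 9 were tested, and 8 were higher in TL and 7 in LS, with 0 lower (medians 2.65 and 2.05). Of 10 leading markers for its subtype mPEPa, 9 were tested, and 9 were higher in TL and 8 in LS, with 0 lower (medians 1.96 and 1.94). In the split of Asic3 neurons by Prokr2, 7 of the 9 mNFb markers and 0 of the 9 mPEPa markers were at least 2-fold higher with Prokr2, and 2 of the mPEPa markers were lower. The study lists Prokr2 among the markers of mNFb, so this count follows from that choice, and nothing is read from it beside the 3.01% of all genes higher with Prokr2.

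The cell type markers gave these counts in the same comparison. Of 8 sensory neuron markers 1 was higher in each segment (Rbfox3) and 0 lower (medians 0.11 and 0.26). Of 10 satellite glia markers 0 were higher and 0 lower in TL, and 1 was higher (Sox10) and 4 lower (Fabp7, Apoe, Kcnj10 and Ednrb) in LS (medians -0.66 and -0.81). Single LS neurons weighed on these calls. Sox10 had a mean of 8.83 TPM in 24 LS Asic3 neurons, with its highest neuron at 155.7 TPM. Among the 134 other LS neurons the highest reached 6236.9 TPM for Fabp7, 52569.8 TPM for Apoe and 128.5 TPM for Kcnj10. Their means were 272, 2913.3 and 3.78 TPM. The part of these neurons was not tested. Of the macrophage markers 2 were tested; C1qb was lower in both segments and Cd68 passed 2-fold in neither, at 1.61-fold higher in TL (medians -0.60 and -1.38); of the fibroblast markers 2 were tested and Dcn was lower in TL (medians -1.56 and -0.40); none of the endothelial markers passed the filter.

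The 6 genes lie on 6 chromosomes. Of the genes most like them, Prkcb lies on chromosome 7 with Chp2, 65926 bases apart, and Creb5 on chromosome 6 with Fam19a1, 42412777 bases apart. RefSeq promoters of GRCm38.p6, from 250 bases before to 50 after a transcription start, were matched for 5 of 5 genes, Fam19a1 by its name Tafa1, and for Asic3; Hcrtr1 has 3 listed starts and S100a16 has 2. Windows were searched on both strands for 8 motifs, those of RUNX proteins (TGTGGT), of ETS proteins (CCGGAA), the E-box motif of bHLH proteins (CAGCTG), the homeobox protein motif (TAATTA), the core promoter element named TATA box (TATAAA), the GC box of SP proteins (GGGCGG), the cyclic AMP response element (TGACGTCA) and a nuclear receptor site (TGACCTTT). Over all 32851 promoters these were found in 16.8%, 14.9%, 16.3%, 5.29%, 13.6%, 35.7%, 1.79% and 1.51%, in that order. TGTGGT was found for Asic3, Hcrtr1 and S100a16, CAGCTG for Prokr2, Hcrtr1 and S100a16, GGGCGG for Prokr2 and S100a16, and CCGGAA for Prokr2, while the other 4 motifs were in none of them and Chp2 and Fam19a1 held no match. No motif was common to the 6 genes, and these matches are a description of letters only. GC content was 42.0% for Fam19a1, 58.7% for Chp2, 59.0% for Prokr2 and 62.0% for Asic3, with a median of 52.7% over all promoters. The windows of Asic3 (chr5:24413201-24413500, plus strand), Prokr2 (chr2:132385398-132385697, minus strand), Chp2 (chr7:122219246-122219545, plus strand) and Fam19a1 (chr6:96112904-96113203, plus strand) are shown because these genes were the most confined to Asic3 neurons together with Asic3; letters in capitals mark motif matches.
Asic3: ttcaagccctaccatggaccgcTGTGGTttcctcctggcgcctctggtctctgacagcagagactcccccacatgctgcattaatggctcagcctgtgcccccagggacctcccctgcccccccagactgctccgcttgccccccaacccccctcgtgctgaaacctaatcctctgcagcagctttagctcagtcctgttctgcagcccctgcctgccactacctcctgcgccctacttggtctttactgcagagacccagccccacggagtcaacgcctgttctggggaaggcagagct
Prokr2: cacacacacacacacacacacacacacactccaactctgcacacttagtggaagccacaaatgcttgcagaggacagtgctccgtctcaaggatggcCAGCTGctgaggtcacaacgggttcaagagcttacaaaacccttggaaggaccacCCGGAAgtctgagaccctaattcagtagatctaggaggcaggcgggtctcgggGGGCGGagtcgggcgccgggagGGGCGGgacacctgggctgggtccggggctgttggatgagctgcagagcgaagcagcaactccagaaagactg
Chp2: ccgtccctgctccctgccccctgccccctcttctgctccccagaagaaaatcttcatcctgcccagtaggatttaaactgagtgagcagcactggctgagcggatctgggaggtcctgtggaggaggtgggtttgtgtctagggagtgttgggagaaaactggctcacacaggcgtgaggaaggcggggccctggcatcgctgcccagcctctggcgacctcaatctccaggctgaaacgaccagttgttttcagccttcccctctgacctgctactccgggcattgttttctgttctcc
Fam19a1: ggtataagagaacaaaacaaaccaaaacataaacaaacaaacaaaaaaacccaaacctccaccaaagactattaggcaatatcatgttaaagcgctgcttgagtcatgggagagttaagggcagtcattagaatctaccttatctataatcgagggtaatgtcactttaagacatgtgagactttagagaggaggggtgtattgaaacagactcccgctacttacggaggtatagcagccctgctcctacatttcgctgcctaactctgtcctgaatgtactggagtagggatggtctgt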

How the data were processed

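Single colonic sensory neurons were sequenced as Smart-seq2 libraries. Per the labels and the submitters' processing notes, the authors aligned reads to GRCm38.p3 with STAR 2.4.1 and counted them on genes with featureCounts 1.4.4 after bcl2fastq 2.15.0.4. The deposited values are on a log2 scale with 1 added and are proportional to reads over gene length; low-quality cells had been removed by the authors, satellite glia cells had not. Here, values were taken off the log2 scale and rescaled to 1000000 per neuron (TPM), with Python 3.11.15, pandas 2.3.3, numpy 2.4.6 and scipy 1.17.1. Read counts were worked back with GENCODE M21 exon lengths (65.3% of values above 0 were whole within 1e-08); for the remaining genes a length that fits was sought. A gene was expressed at 10 TPM or more. TL and LS are 1 sample each, so no p-value was computed; shares have exact Clopper-Pearson 95% intervals, and 0 of n allows 3 of n. Ratios are of mean TPM with a pseudocount of 1, counted past 2-fold, over genes at 10 TPM or more in at least 5% of neurons. Genes were named by the 10 highest and lowest ratios (5 for LS against TL and for the receptor splits) among genes at 10 TPM or more in at least 25% of the higher group and alike in every plate with 3 or more neurons of each group, and by the 5 highest rho. The members and lists were chosen with earlier results of these data known. Steps were tested on simulated data. Alternatives were other thresholds, no rescaling, CPM of recovered reads, leaving out neurons or plates, the mean of log2 values and a looser gene filter. The 74 neurons and 13 bath controls without values were left out. Some genes of the lists are counted but not reported by name here.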

Additional observations from a re-analysis of the deposited data

How the results depend on the processing

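The 60 shares, log2 ratios and counts of genes were computed again in up to 16 settings, giving 860 values. Of these, 787 stayed within the interval of the reported share or within 1.5-fold of the reported ratio or count, and 73 moved further. A reversal of sign was defined only for log2 ratios reported past 2-fold, and 0 of the 70 log2 ratio values reversed. Shares and counts could not be labelled as reversed, so the directions of shares are given apart. Of 1485 values for single genes, 235 moved and 0 reversed. Apart from Asic3 and the 5 genes, these genes had been chosen for the most extreme ratios alike in every plate. Only ratios past 2-fold could be labelled as reversed, so the 0 largely follows from the choice and is no sign of stability. Of 21 pairs of shares compared, 19 kept 1 direction in all settings; the exceptions were Hcrtr1 in LS Asic3 neurons against other LS neurons at a threshold of 20 TPM (a difference of -2.30) and S100a16 in the same groups without plate 2 (-1.16). Unless said otherwise, the cause of a move was not tested. No paired analysis was possible because replicate numbers only name neurons and pair nothing; directions within the 5 plates that hold both segments are in the results above.

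A lower threshold of 5 TPM, for Asic3 as well, lets more neurons pass. Hcrtr1 was then at 22.8% of neurons without Asic3 and 24.0% of those in LS; S100a16 at 30.8% without Asic3, 38.0% in TL and 24.8% in LS; Chp2 at 8.44% without Asic3. By segment, Hcrtr1 was at 29.9% in TL and 27.2% in LS, S100a16 at 50.3% and 25.9%, and Chp2 at 16.5% in LS. At least 2 of the genes were in 75% of Asic3 neurons and 16.5% of others, and 196 genes were higher with Hcrtr1 in Asic3 neurons.

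A threshold of 20 TPM lets fewer pass. Hcrtr1 was at 23.0% of Asic3 neurons, 6.37% of others, 4.50% of TL neurons without Asic3 and 5.56% of LS Asic3 neurons; S100a16 at 11.9% without Asic3, 17.1% in TL without it, and in LS 11.1% with and 7.86% without it; Chp2 at 0.901% of TL neurons without Asic3. By segment, Hcrtr1 was at 12.6% in TL and 7.59% in LS, and S100a16 at 29.3% and 8.23%. At least 2 of the genes were in 1.99% of neurons without Asic3, and 485 genes were lower with Hcrtr1 in Asic3 neurons.

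Without rescaling, the log2 ratio of S100a16 in TL over LS was 2.99; 1161 genes were lower in LS Asic3 neurons, 1358 were lower in LS than in TL Asic3 neurons, 1410 were lower with Prokr2, and 669 were higher and 650 lower with Hcrtr1. With CPM of recovered reads, which favours long genes, Prokr2 was at 11.02% of neurons without Asic3, 9.09% in TL and 12.6% in LS, and 16.5% of all LS neurons; S100a16 was at 13.9% without Asic3, 8.15% in LS without it and 11.4% of all LS neurons.

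Without the 84 neurons beyond 3 median absolute deviations, S100a16 was at 15.2% of neurons without Asic3 and 17.1% in TL, Fam19a1 at 0% in TL (0 of 76), and 193 genes were higher with Hcrtr1. Leaving out 1 plate at a time, Fam19a1 in LS neurons without Asic3 ran from 0 to 2%, the log2 ratio of S100a16 in TL over LS from 1.77 to 3.51, and the genes higher with Prokr2 from 347 to 547. Without the 17 neurons highest in satellite glia markers nothing moved.

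With the mean of log2 values, 340 genes were lower in LS Asic3 neurons, 260 lower in LS than in TL, 97 lower with Prokr2, and 1251 higher and 36 lower with Hcrtr1. With genes at 10 TPM in at least 1 neuron more genes were tested: 621 were higher and 1068 lower in TL, 574 higher in LS, 1042 higher and 785 lower in LS than in TL, 684 and 556 with Prokr2, and 554 and 476 with Hcrtr1.

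Of alternatives chosen after the data had been seen, leaving out 23 neurons under 1000000 reads moved nothing. Without the 81 neurons highest in satellite glia markers, S100a16 was at 38.2% of Asic3 neurons and 9.52% of others, in TL 45.7% and 11.2%, in LS without Asic3 8.26%, and by segment at 21.7% in TL and 10.9% in LS; 725 genes were higher with Prokr2 and 475 with Hcrtr1. Without the 1 Asic3 neuron of the segment with the highest level of the gene, the LS ratio moved from 3.47-fold to 1.71-fold for Prokr2 and from 3.30-fold to 1.25-fold for S100a16, so both fell under 2-fold; those of Chp2 and Fam19a1 did not.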
